A study of Caenorhabditis elegans with 18 samples.

Results

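tos-1 is a Caenorhabditis elegans gene used as an endogenous readout of splicing, and every entry that the deposited lists assign to tos-1 alone was taken. There were 126 such entries among 988152, and they came from 17 of 18 libraries. They comprised 17 transcript starts, 55 transcript ends and 17 pairs for 1 skipped exon, the others being rare events. No event with a group of adjacent skipped exons was listed for tos-1. RNA was sequenced from embryos of 6 strains with 3 libraries each, all grown at 20 °C, to compare expression and splicing between the strains. Besides N2, the wild type, they were uaf-1(n4588), the rbm-5 mutants n5119 and n5132, and the combinations uaf-1(n4588); rbm-5(n5119) and uaf-1(n4588); rbm-5(n5132), called here the n5119 and the n5132 double mutant. Eggs were released from synchronized adults with bleach, and total RNA was extracted with Trizol and treated with DNase. The labels number the replicates without saying whether they were separate cultures, so p-values measure the spread between these libraries, which may be technical.

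uaf-1 encodes the large subunit of U2AF, which recognises the polypyrimidine tract before the 3′ splice site and helps bring the U2 snRNP to the branch point. When this recognition is weak, an intron can stay in the transcript, another 3′ splice site can be used, or an exon can be passed over. rbm-5 encodes an RNA-binding protein related to human RBM5, which is known for regulating alternative splicing. tos-1 produces several spliced forms in wild-type worms, and the balance between them has been used to read out the activity of splicing factors.

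In the WBcel235 annotation (release 115), tos-1 (K07B1.6, WBGene00019466) lies on chromosome V at 9338859–9344203 on the minus strand and has 6 transcripts. The skipped exon is at V:9343501–9343567 and is 67 bases long, which is not a multiple of 3. It lies between an intron of 108 bases upstream and one of 84 bases downstream, and skipping joins its neighbours across 259 bases. In the 3 coding transcripts the exon before it, called here the first exon, is unbroken from its 5′ end to V:9343676. In the 3 transcripts annotated as non-coding RNA the same stretch is split by an intron of 149 bases at V:9343797–9343945. The coding transcript K07B1.6a.1 lacks the skipped exon and has 163 codons, whereas K07B1.6b.2 carries it and has 157. The transcript K07B1.6e includes the exon and ends in a last exon of 4558 bases that begins at V:9343416.

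**Figure D1:**
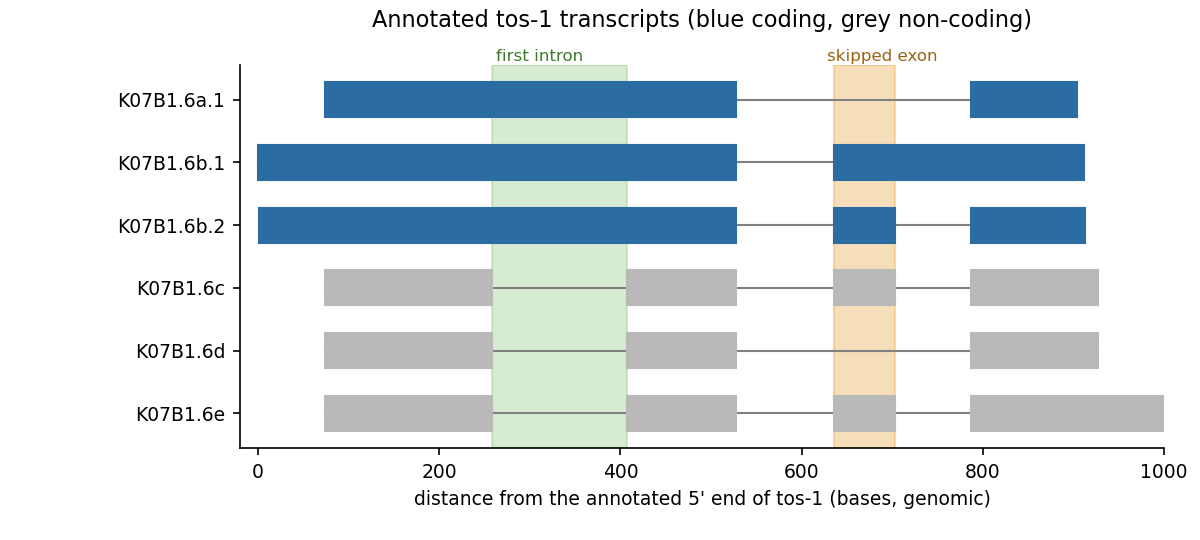
Exons (boxes) and introns (lines) of the 6 annotated tos-1 transcripts by distance in bases from the annotated 5′ end, with coding transcripts in blue and non-coding ones in grey. The first intron, shaded green, is present in 3 transcripts, and the skipped exon, shaded orange, is absent from K07B1.6a.1 and K07B1.6d; the last exon of K07B1.6e runs beyond the plotted range.

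The lists give FPKM, which counts fragments per length of transcript and per mapped fragments of the library, summed over the assembled transcripts that hold an event. The depth of the libraries is unknown because no counts were given, and a value of exactly 0 may be a failed estimate. Each library listed 53772 to 55828 entries, of which 26.7% to 33.7% were at 0. The 6 replicate 1 libraries had higher summed start FPKM, 1.25e+06 to 2.07e+06, than the 12 others, 803936 to 1.14e+06. They also differed in composition: their 10 highest starts held 21.3% to 43.7% of this sum, against 7.57% to 11.8% in the others. The largest shares of entries at 0 were in rbm-5(n5119) replicate 3, at 33.7%, and in n5119 double mutant replicate 1, at 32.1%. Markers of embryos were present throughout: the summed FPKM of 5 early genes was 285 to 789 and that of 5 mid-embryonic genes 138 to 282. The sum of 4 late muscle genes spread more widely, from 55.4 to 354 FPKM. A marker that a library did not list as a locus of its own added nothing to these sums. Summed adult intestine and cuticle markers were at 0.107 to 4.19 FPKM over 5 genes. Of 3 sperm-associated genes, which summed to 20.5 to 46.7 FPKM, spe-9 and spe-11 were near 0 in all libraries and spe-48 gave nearly all of the sum.

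Very few assembled transcripts carried the tos-1 signal. Last exons above 0 FPKM numbered 1 in 5 libraries, 2 in 11 libraries and 3 in 1 library. The FPKM of all ends equalled that of the 2 exon forms together in 17 of 17 libraries, within 0.001 FPKM, and this sum is called the total. The only listed start was that of the unbroken first exon, so the start value counts this form alone. How the other transcripts begin is not listed in these 17 libraries, apart from an acceptor in 2 of them. The readouts below are therefore linked: a single assembled transcript can contribute its start, its exon form and its end.

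tos-1 was abundant in wild-type embryos, and most of its signal lay outside the unbroken form. The total was 295, 376 and 566 FPKM in wild-type replicates 1, 2 and 3, with a mean of 412 FPKM, above 98.7% of 14485 genes, whose median was 1.16 FPKM. The unbroken first exon accounted for 46.5, 67.8 and 96.4 FPKM, a share of 0.157, 0.180 and 0.170. These shares were close to each other although the totals differed. The remaining 0.843, 0.820 and 0.830 of the signal included the skipped exon and ended in the last exon that begins at V:9343416, listed there with the length annotated for K07B1.6e.

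Skipping was uneven among the wild-type libraries. Replicate 1 had 46.5 FPKM of the skipped form, equal to its unbroken form, and an included share of 0.843. Replicates 2 and 3 listed the skipped form at 0 and had an included share of 1. The unbroken transcripts of wild type thus all lacked the exon in replicate 1 and all carried it in the other two.

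In uaf-1(n4588) the unbroken first exon made up most or all of tos-1. Its share was 0.759, 1 and 1 in replicates 1, 2 and 3, with no overlap with wild type. In FPKM the unbroken form was at 47.99, 123 and 110, which overlaps the wild-type values, whereas the other transcripts were at 15.3, 0 and 0 against 249, 309 and 469 in wild type. The lower total of the mutant thus lay in the transcripts without the unbroken first exon. An exact permutation test of 3 against 3 libraries gave p = 0.1 for the share, the smallest p that this design allows.

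**Figure D2:**
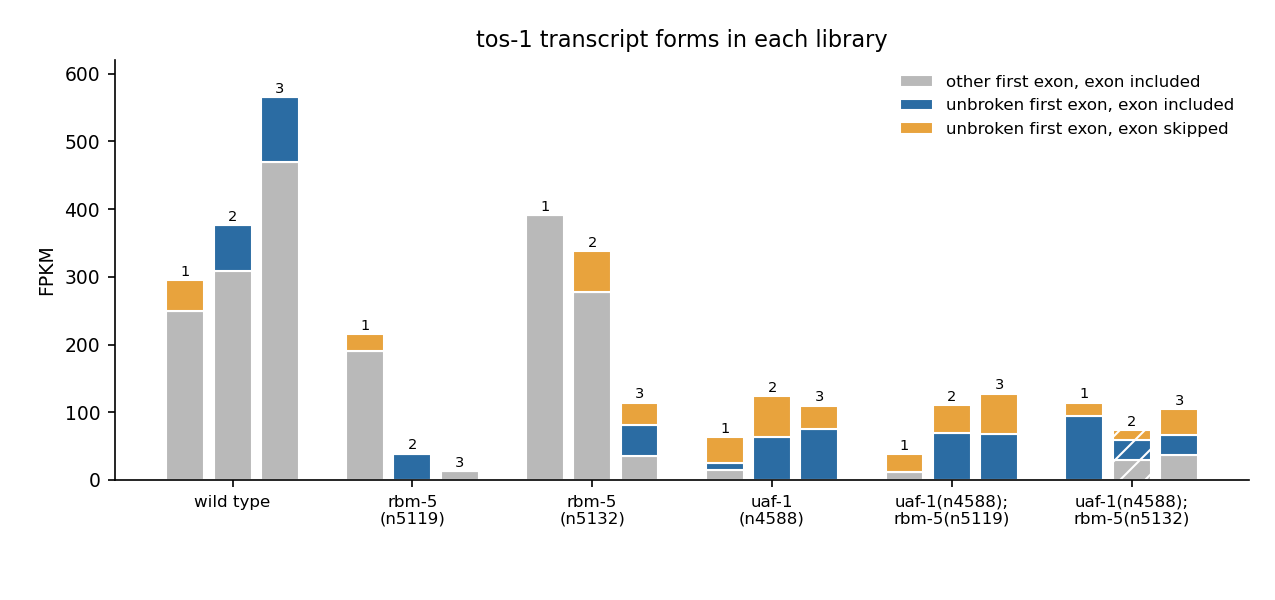
FPKM of 3 tos-1 forms in each library (bars numbered by replicate), stacked so that the full height is the total. The other first exon with the exon included, grey, dominates the 3 wild-type libraries at 249 to 469 FPKM and is at 0 to 36.6 FPKM in all libraries with uaf-1(n4588); the hatched bar is the library in which tos-1 was assembled together with K07B1.7. Skipping was assigned to unbroken transcripts by totals in 10 libraries, by equal FPKM in 4 and by sums in 3.

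In the rbm-5 backgrounds the unbroken share was higher on average with uaf-1(n4588), but single libraries overlapped. The n5119 double mutant had 0.701, 1 and 1, against 0.116, 1 and 0 in rbm-5(n5119) (exact permutation p = 0.4). The n5132 double mutant had 1 and 0.650 in replicates 1 and 3, against 0, 0.180 and 0.685 in rbm-5(n5132) (exact permutation p = 0.3). In 5 of 8 libraries with uaf-1(n4588) all tos-1 signal was unbroken, against 1 of 9 without it. Averaged over the 3 rbm-5 backgrounds, the mean share rose by 0.605 with uaf-1(n4588). An exact two-sided permutation test within the 3 rbm-5 backgrounds gave p = 0.003, or 0.009 adjusted by Benjamini-Hochberg over 6 comparisons, with 0.00025 the smallest p possible. This share was chosen as a readout after its values had been seen. In replicates 2 and 3 alone, where the n5132 double mutant has 1 library, the difference was 0.514 (exact permutation p = 0.0833). Without rbm-5(n5119) replicate 3 and n5119 double mutant replicate 1 it was 0.576 (exact permutation p = 0.0075).

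Skipping of the exon was listed in all 8 libraries with uaf-1(n4588) and in 4 of 9 without it. The included share was 0.403, 0.516 and 0.687 in uaf-1(n4588), below every wild-type value. It was 0.299, 0.628 and 0.528 in the n5119 double mutant, against 0.884, 1 and 1 in rbm-5(n5119). It was 0.827 and 0.636 in n5132 double mutant replicates 1 and 3, against 1, 0.820 and 0.709 in rbm-5(n5132). With and without uaf-1(n4588), the libraries did not overlap in the wild-type and n5119 backgrounds, and overlapped in n5132.

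With the backgrounds averaged, the included share fell by 0.333 with uaf-1(n4588) (exact two-sided permutation p = 0.00125, adjusted 0.0075 over the same 6 comparisons). In replicates 2 and 3 alone, again with 1 library of the n5132 double mutant, it fell by 0.316 (exact permutation p = 0.0185). Without rbm-5(n5119) replicate 3 and n5119 double mutant replicate 1 it fell by 0.296 (exact permutation p = 0.00417). Each uaf-1(n4588) comparison of 3 against 3 can go no lower than p = 0.1, which was the exact permutation p for wild type and for n5119, and the n5132 background gave p = 0.5.

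Set against all splicing events, the tos-1 exon did not pass the threshold on the log2 ratio of the 2 forms. This ratio, log2((included FPKM + 1) / (skipped FPKM + 1)), differed by -4.36 with uaf-1(n4588) averaged over backgrounds (SE 1.12, 95% interval -6.79 to -1.94). Its size depends on the pseudocount, since the skipped form was at 0 in 5 of 9 libraries without uaf-1(n4588): with 0.1 in place of 1 the difference was -6.20 (limma adjusted p = 0.0977), and that against wild type was -8.70 in place of -6.48. limma gave an adjusted p of 0.0625 over 2523 events, of which 69 were called at an adjusted p under 0.05, a share of 2.73%, and tos-1 ranked 74 by p. When the included share itself was fitted in limma, the adjusted p was 0.0111. The log2 difference was -5.08 without wild-type replicate 1 (adjusted p = 0.0101), -4.82 without rbm-5(n5132) replicate 3 (adjusted p = 0.0411) and -4.22 without the 2 libraries with most entries at 0 (adjusted p = 0.161).

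**Figure D3:**
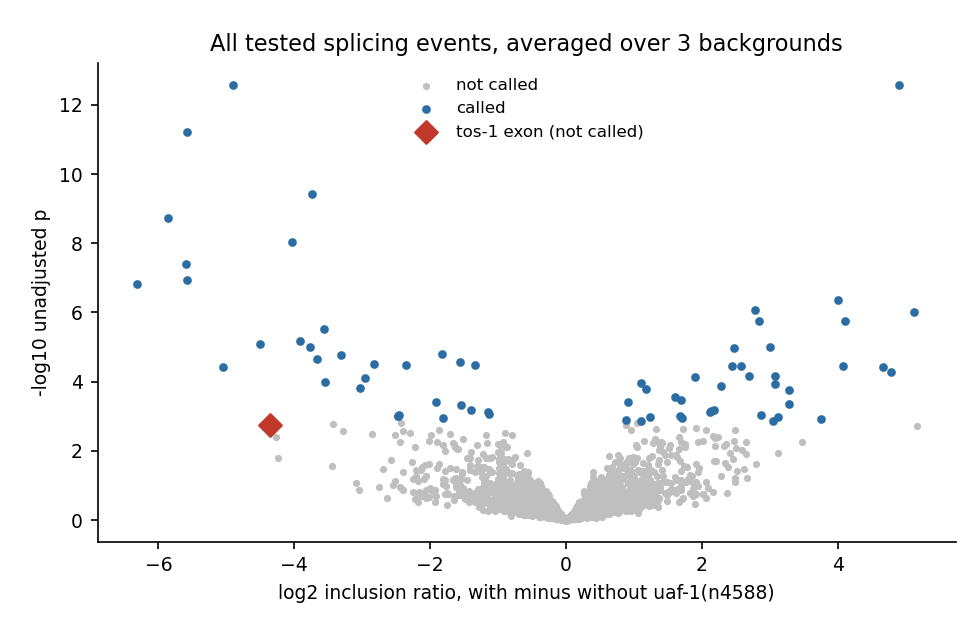
Log2 difference in the inclusion ratio with minus without uaf-1(n4588), averaged over 3 rbm-5 backgrounds (x axis), against -log10 of the unadjusted limma p (y axis) for 2523 splicing events. The 69 called events are blue, and the tos-1 exon, red diamond, lies at -4.36, just under the called events on the y axis.

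Strain by strain, the mean exon ratio with uaf-1(n4588) was below that of the matching strain in each of the 3 backgrounds, and none of these differences was called. Against wild type the log2 difference was -6.48 (SE 1.87, limma adjusted p = 0.243). The 2 groups did not overlap, as was the case for 17% of 3033 events, while 0.396% were called. In the n5119 background the log2 difference was -4.09 (SE 1.87, limma adjusted p = 0.805), again without overlap, which held for 13.1% of events, with 0.645% called. It was -3.65 without the 2 libraries with most entries at 0, both of which enter this contrast (limma adjusted p = 0.837). In the n5132 background it was -2.52 (SE 2.09, limma adjusted p = 0.936), where 0.422% of events were called. That value moved to -0.22 without rbm-5(n5132) replicate 1 and to -3.90 without its replicate 3. In replicates 2 and 3 alone, the first 2 of these differences were -8.25 (limma adjusted p = 0.00187) and -4.11 (limma adjusted p = 0.0482), and without wild-type replicate 1 the first was -8.63 (limma adjusted p = 0.0372).

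**Figure D4:**
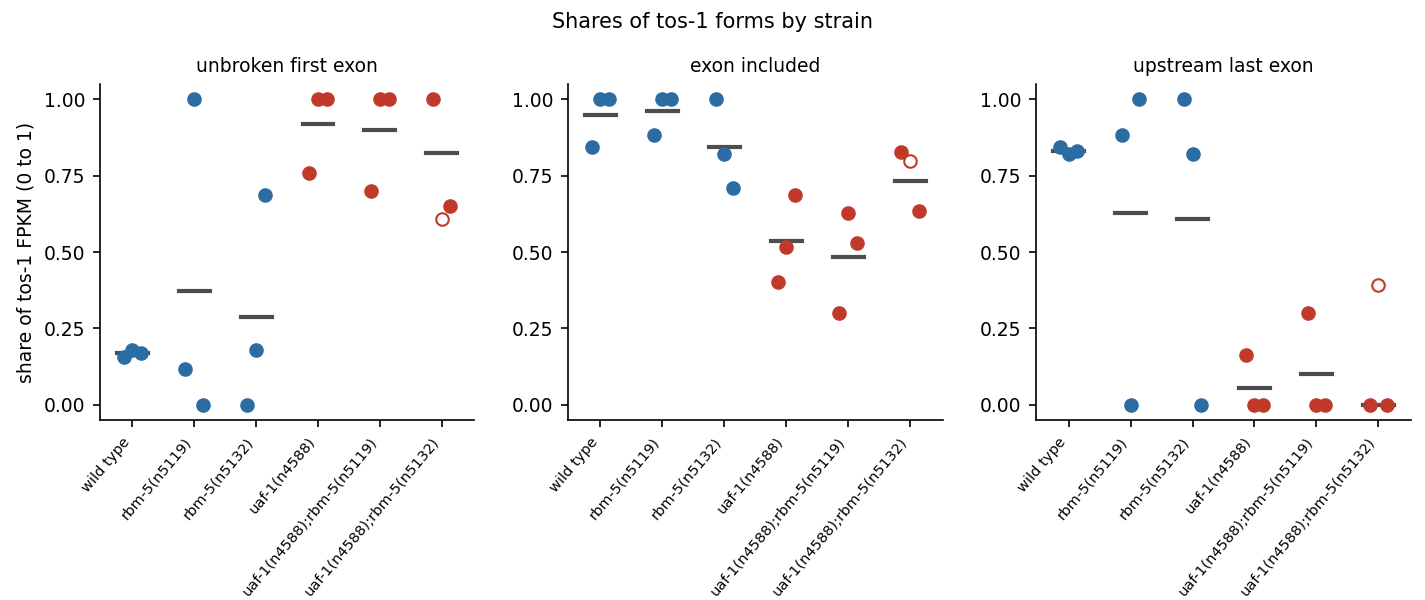
Share of tos-1 FPKM, from 0 to 1, with the unbroken first exon (left), the exon included (middle) and the upstream last exon (right) in each library, with a line at the strain mean. Red points carry uaf-1(n4588) and blue points do not; the open point is the library with the joined locus and is not in the mean. All red points lie at 0.607 or above on the left, and the blue wild-type points at 0.157 to 0.180.

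Over all libraries, neither rbm-5 allele shifted the exon past the threshold. The included share was 0.948 ± 0.0908 (SD, n = 3) in wild type, 0.961 ± 0.067 in rbm-5(n5119) and 0.843 ± 0.147 in rbm-5(n5132). The log2 ratio of rbm-5(n5119) differed from wild type by -2.70 (SE 1.87, limma adjusted p = 0.922), although the mean share was higher by 0.0138. In replicates 2 and 3 of both strains the skipped form was at 0, so the ratio there followed the level of the included form, 39.0 and 12.9 FPKM against 376 and 566 FPKM. Without 1 library at a time the difference ranged from -4.85 to -1.48. Its 95% interval reached from -6.73 to 1.33, so a sizeable difference either way could go undetected. For rbm-5(n5132) the log2 difference was -2.68 (SE 1.87, limma adjusted p = 1), from -4.98 to -1.31 without 1 library at a time, and in replicates 2 and 3 alone it was -7.13 (limma adjusted p = 0.00959). limma called 0 of 3021 and 0 of 3122 events in these 2 comparisons, with 166 and 137 at an unadjusted p under 0.05.

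Adding an rbm-5 allele to uaf-1(n4588) gave values on either side. The n5119 double mutant differed from uaf-1(n4588) by a log2 ratio of -0.31 (SE 1.87, limma adjusted p = 0.997), and the direction turned without uaf-1(n4588) replicate 3 (0.14) or n5119 double mutant replicate 1 (0.23). The n5132 double mutant differed by 1.28 (SE 2.08, limma adjusted p = 0.997), with a mean included share of 0.732 in 2 libraries against 0.535 in uaf-1(n4588). The shares of called events were 0% of 3257, with 137 events at an unadjusted p under 0.05, and 0.0612% of 3266. Averaged over alleles and backgrounds, the rbm-5 difference was -1.10 (SE 1.17, limma adjusted p = 0.859, 0.0396% called), and the included share fitted in the same way differed by 0.0138 (limma adjusted p = 1). With the alleles pooled within each uaf-1 background, the mean share differed by 0.00148 (exact permutation p = 0.988). The uaf-1(n4588) difference in the rbm-5 mutants minus that in wild type was 3.18 (SE 2.34, 95% interval -1.86 to 8.22, limma adjusted p = 0.993). limma called 0 of 2523 events for this interaction, with 89 at an unadjusted p under 0.05.

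The order of the strains by included share ran from rbm-5(n5119) through wild type, rbm-5(n5132), the n5132 double mutant and uaf-1(n4588) to the n5119 double mutant at 0.485 ± 0.169 (SD, n = 3). Of the 5 neighbouring pairs in this order, the n5132 double mutant and uaf-1(n4588) differed by more than the larger SD of the pair (0.196 against 0.143), and the other 4 pairs did not. Among unbroken transcripts alone, the included share gave no such order. It was 0, 1 and 1 in wild type. It was 0.213, 0.516 and 0.687 for uaf-1(n4588), and 0, 0.628 and 0.528 for the n5119 double mutant. It was 0.827 and 0.440 for the n5132 double mutant, 0 and 1 for rbm-5(n5119) replicates 1 and 2, and 0 and 0.576 for rbm-5(n5132) replicates 2 and 3. Values between 0 and 1 were thus listed in 7 of 8 libraries with uaf-1(n4588) and in 1 of the 7 libraries without it that had unbroken transcripts; this difference was not tested.

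The 3′ part of tos-1 also differed with uaf-1(n4588) when the backgrounds were averaged. An end at V:9343548–9343567, inside the skipped exon, was listed at 0 FPKM in all 17 libraries. The last exon beginning at V:9343416, the most upstream one with signal, took 0.843, 0.820 and 0.830 of tos-1 FPKM in wild type, against 0.162, 0 and 0 in uaf-1(n4588). It was listed at 0 in 6 of 8 libraries with uaf-1(n4588), against 2 of 9 without it, which were rbm-5(n5119) replicate 2 and rbm-5(n5132) replicate 3. Averaged over backgrounds its share fell by 0.637 with uaf-1(n4588) (exact two-sided permutation p = 0.00475, adjusted 0.0095 over 6 comparisons). Within the rbm-5 backgrounds the libraries overlapped: the share was 0.299, 0 and 0 in the n5119 double mutant against 0.884, 0 and 1 in rbm-5(n5119) (exact permutation p = 0.4). It was 0 in both libraries of the n5132 double mutant against 1, 0.820 and 0 in rbm-5(n5132) (exact permutation p = 0.4). In replicates 2 and 3 alone, with 1 library of the n5132 double mutant, the averaged difference was -0.578 (exact permutation p = 0.0833), and without the 2 libraries with most entries at 0 it was -0.609 (exact permutation p = 0.01). The readout was chosen after its values had been seen, and it is not independent of the first exon: the unbroken start equalled the sum of the downstream ends in 14 of 17 libraries.

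Transcripts without that last exon had last exons beginning 1609 to 2918 bases further downstream, inside the last exon annotated for K07B1.6e. The 2 kinds differ in where the last exon begins, and not always in where it ends. In wild-type replicates 2 and 3 both ran to V:9338859, the annotated tos-1 end. In 3 libraries with uaf-1(n4588), approximate events listed shorter exons that also begin at V:9343416, such as V:9342204–9343416. The share above counts last exons and not all use of this base. Of 7 such positions, the one at V:9340956 was listed in 12 libraries, 8 with and 4 without uaf-1(n4588). The positions at V:9341807 (2 libraries), V:9341700 (1 library) and V:9340810 (2 libraries) came from libraries with uaf-1(n4588). Those at V:9340692 (1 library), V:9340657 (1 library) and V:9340498 (2 libraries) came from libraries without it. In uaf-1(n4588) replicate 2 and n5119 double mutant replicates 1 and 3, a last exon ran past the annotated tos-1 end at V:9338859. It reached V:9338703, V:9338708 and V:9338695 in that order, inside the neighbouring gene coq-6. The upstream last exon was listed with 4558 bases in 7 of the 9 libraries that had it and with 140 bases in rbm-5(n5119) replicate 3 and rbm-5(n5132) replicate 1. Because FPKM is scaled per length of the assembled transcript, these differences in assembled length enter the values, and their part in the results was not tested.

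Rare events of tos-1 were listed in few libraries and none could be tested. In uaf-1(n4588) replicate 1 and n5132 double mutant replicate 3 the exon after the first intron began 64 bases before the annotated acceptor, inside the 149-base intron. This form, V:9343676–9343860, had 15.3 and 36.6 FPKM, and the annotated form V:9343676–9343796 was at 0 in both. Its FPKM equalled that of all transcripts without the unbroken first exon in these 2 libraries. A retained intron near V:9342912–9342964 had 29.9 FPKM retained and 38.1 FPKM spliced in n5132 double mutant replicate 3. An event with several introns retained together, V:9342912–9343206, had 33.2 FPKM retained and 45.1 FPKM spliced in rbm-5(n5132) replicate 3. A second such event in that library, V:9341892–9343206, had 36.0 FPKM retained and 45.1 FPKM spliced.

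No tested contrast of tos-1 level passed the threshold, by the ends or by the listed start, which counts the unbroken form alone. The contrasts were uaf-1(n4588) against wild type, uaf-1(n4588) averaged over backgrounds and the rbm-5 mutations averaged. For the ends only, rbm-5(n5119) against wild type was added to the plan, and no other pair of strains was tested for level. By ends, uaf-1(n4588) had 63.3, 123 and 110 FPKM, below every wild-type library. The log2(FPKM + 1) difference was -2.05 (SE 0.80, limma adjusted p = 0.669). Non-overlap was found for 17.4% of 8434 genes and 0.13% were called. By the listed start, the log2 difference was 0.36 (SE 1.53, limma adjusted p = 0.999), with 0.178% of 8436 genes called. Fewer cells that express a gene and less RNA per cell cannot be told apart in these bulk samples.

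In rbm-5(n5119) the level spread widely between libraries. It was 215, 39.0 and 12.9 FPKM by ends, and replicate 3, with the largest share of entries at 0, was the lowest. The log2 difference from wild type was -3.01 (SE 0.80, limma adjusted p = 0.648), with no overlap, as for 14.3% of 8562 genes, and 0.0234% called. It was -2.10 without that library (limma adjusted p = 0.999). rbm-5(n5132) had 391, 338 and 114 FPKM, the n5119 double mutant 38.3, 111 and 128 FPKM, and the n5132 double mutant 114 and 105 FPKM. In the order of mean totals from wild type (412 FPKM) to rbm-5(n5119) (89.1 FPKM), the step from rbm-5(n5132) to the n5132 double mutant (281 to 109 FPKM) exceeded the larger SD of its pair, 147 FPKM, and the other 4 steps did not.

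Averaged over backgrounds, uaf-1(n4588) changed neither level beyond the threshold. The log2 difference was -0.83 by ends (SE 0.48, limma adjusted p = 0.83, 0.657% called) and 1.87 by the start (SE 0.92, limma adjusted p = 0.737, 0.657% called). For the rbm-5 mutations it was -0.93 by ends (SE 0.50, limma adjusted p = 0.489, 0.028% called) and -1.25 by the start (SE 0.96, limma adjusted p = 0.575, 0.0279% called).

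**Figure D5:**
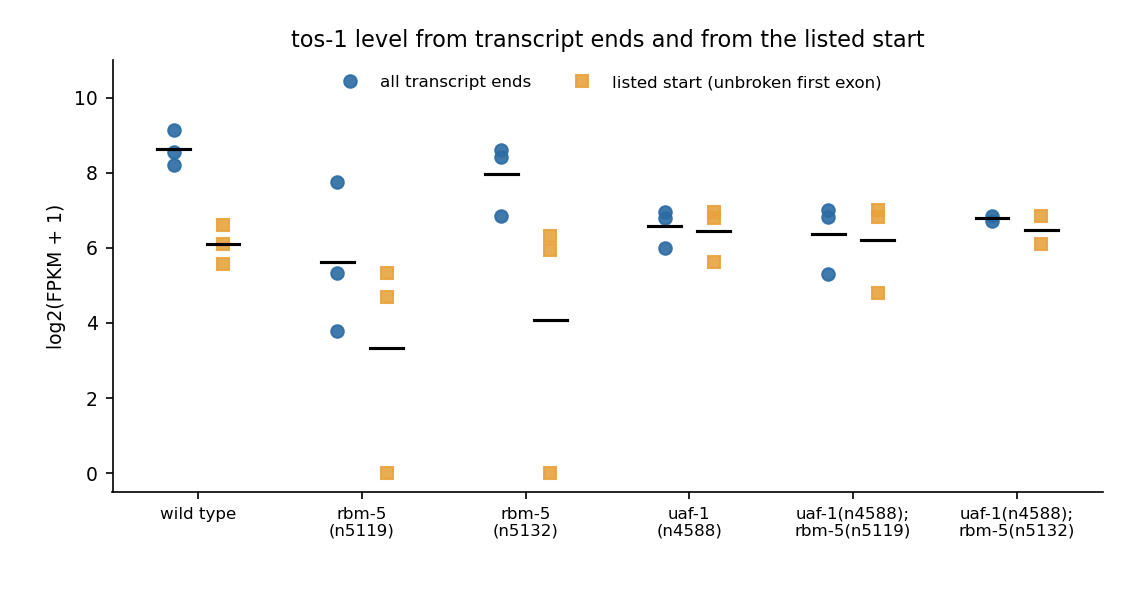
log2(FPKM + 1) of tos-1 in each library from all transcript ends (blue circles) and from the listed start of the unbroken first exon (orange squares), with a line at the mean of each strain. The 2 measures are apart in wild type, where the means are 412 and 70.2 FPKM, and close in uaf-1(n4588), at 98.9 and 93.8 FPKM.

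The gap between start and end was unusual among genes. Start and end sums were equal in 80.5% to 84.4% of genes per library. In the 3 wild-type libraries the log2 ratio of start to end of tos-1 was -2.64, -2.46 and -2.54, and only 0.567% to 0.685% of genes had a lower ratio. In uaf-1(n4588) it was -0.39, 0 and 0. The ratio was 2.42 higher in uaf-1(n4588) than in wild type (SE 1.61, limma adjusted p = 1) without overlap, which 2.21% of 8535 genes showed, with 0.152% called. Fitted on these 6 libraries alone, the same difference had SE 0.13 and a limma adjusted p of 0.0275. Averaged over backgrounds it was 2.70 (SE 0.97, limma adjusted p = 1, 0.0276% called), and -0.32 for the rbm-5 mutations (SE 1.01, limma adjusted p = 1, 0.0414% called). Because the ends sum to the total, this ratio is the unbroken share on a log2 scale, apart from the pseudocount, and adds no separate evidence. Averaged over backgrounds, that share had an adjusted exact permutation p of 0.009 over 6 comparisons, whereas the ratio did not pass against 7244 genes. This readout, too, was chosen after the values had been seen.

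In the n5132 double mutant replicate 2, tos-1 was assembled in 1 locus with its upstream neighbour K07B1.7, which lies 818 bases away on the same strand, and this library is not in the counts above. Its total was 73.5 FPKM, its included share 0.799, its unbroken share 0.607 and its upstream last exon share 0.393. Its listed ends came to only 28.9 FPKM, all in an upstream last exon of 38 bases. The unbroken form, at 44.6 FPKM, had no listed end with signal, so these shares are not fully comparable with those of the other libraries. The start of its split first exon, V:9343946–9344129, was listed there at 28.9 FPKM. With this library the exon ratio averaged over backgrounds was -4.32 (limma adjusted p = 0.0406) and the included share fell by 0.326 (exact permutation p = 0.00125). K07B1.7 itself had 34.7 ± 0.308 FPKM in N2 and 36.5 ± 1.89 FPKM with uaf-1(n4588) (SD, n = 3), a log2 difference of 0.07 (limma adjusted p = 1). On the other side coq-6, which encodes an enzyme of ubiquinone synthesis, abuts tos-1 on the opposite strand with 0 bases between the genes, and whether counting used strand is not given in the sources used here. coq-6 had 33.7 ± 1.72 FPKM in N2 and 28.5 ± 24.7 FPKM with uaf-1(n4588) (SD, n = 3), where the lowest library was at 0. The log2 difference was -1.48 (SE 1.35, limma adjusted p = 0.9996).

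Several events of other genes followed the tos-1 exon over the 17 libraries. Among 2389 events of other genes, Pearson r of the log2 inclusion ratio with that of tos-1 had a median of -0.01. The highest values were 0.80 for an alternative exon end of B0001.7, 0.78 for an exon of ZC455.1, 0.76 for an exon of egl-8, a phospholipase C beta, 0.75 for an exon of a locus joining R10D12.13 and sao-1, and 0.74 for an exon end of srh-2. The lowest were -0.83 for an exon of dur-1, -0.79 for an exon end of bath-44, and -0.76 for events of Y37E3.11, srh-2 and F49E2.5. The Y37E3.11 and F49E2.5 events had a mean inclusion share of 0 with and without uaf-1(n4588), so their ratio followed the level of the other form. These points share libraries and strain, and r is a description. The mean included share without and with uaf-1(n4588) was 0.733 and 0 for B0001.7 and 0.327 and 0 for the R10D12.13 and sao-1 locus, next to 0.917 and 0.566 for tos-1. It was 0.576 and 0.0599 for the srh-2 end with r of 0.74, also called with uaf-1(n4588) averaged. ZC455.1 (0.846 and 0.527, limma adjusted p = 0.209) and egl-8 (0.831 and 0.651, limma adjusted p = 0.379) were not called. Among the lowest r, dur-1 and F49E2.5 were not called (limma adjusted p = 0.501 and 0.136), while bath-44, Y37E3.11 and srh-2 were.

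By total level over the 6 strain means, the genes most like tos-1 were glb-27, mks-6, ptr-21, dmsr-5 and amx-2, with Pearson r of 0.98 to 0.99, but 258 of 7151 genes reached 0.9. The levels of splicing factors are given by count. Of 10 factors of the 3′ splice site and branch point 6 were tested, and limma called 0 in uaf-1(n4588) against wild type, in uaf-1(n4588) averaged over backgrounds or in the rbm-5 mutations averaged, with 2, 1 and 3 by ends at an unadjusted p under 0.05. Over all genes these contrasts had 527 of 8434, 535 of 7152 and 693 of 7152 at that level. The median log2 difference by ends was -0.12 over the 6 factors and -0.05 over all genes in uaf-1(n4588) against wild type, -0.01 and -0.03 in uaf-1(n4588) averaged, and 0.48 and -0.13 in the rbm-5 mutations averaged. uaf-1 had 176 ± 47.8 FPKM in N2 and 98.8 ± 29.1 FPKM in the uaf-1(n4588) single mutant (SD, n = 3; limma adjusted p = 0.378). In the n5119 and n5132 double mutants, which also carry n4588, it had 156 ± 15.3 and 176 ± 34.4 FPKM. By ends rnp-6, a poly(U)-binding splicing factor, had 63.9 ± 16.3 FPKM in N2 and 106 ± 85.2 FPKM in the uaf-1(n4588) single mutant. The rnp-6 end values in that mutant ranged from 55.3 to 205 FPKM. Its start values were higher, at 147 ± 26.3 FPKM in N2 and 192 ± 14.2 FPKM in the single mutant. Of 7 factors of nonsense-mediated decay, which removes transcripts with early stop codons, 5 or 6 were tested in these contrasts, limma called 0, and 0 had an unadjusted p under 0.05. The median log2 difference by ends in uaf-1(n4588) was -0.03 over the 6 tested there. smg-1, the kinase of this pathway, had 27.2 ± 7.6 FPKM in N2 and 21.5 ± 7.77 FPKM in the uaf-1(n4588) single mutant.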

How the data were processed

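The deposited values are FPKM per event, 1 list per library, per the file headers. Per the submitters' processing notes, the authors used TopHat2 2.0.12 with Bowtie2 and the WBcel235 build. The assembler and event caller are not given in the sources used here. The unbroken first exon, the skipped exon and the upstream last exons of 4558 and 140 bases matched annotation release 115 of the same build. The 7 downstream last-exon positions and the acceptor at V:9343860 were not among its tos-1 exon boundaries. No scaling between libraries is stated, and none was applied.

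Entries with the reference gene tos-1 alone were taken. The included and skipped forms of the exon were compared as log2((included FPKM + 1) / (skipped FPKM + 1)) and as the share of inclusion, and levels as log2(FPKM + 1). For all events and all genes, limma 3.58.1 (R 4.3.3) fitted 1 mean per strain to 18 libraries (moderated, two-sided, with an intensity trend for levels only). Every strain compared had to list the event or gene in 2 or more libraries, with a mean of 1 FPKM or more. Benjamini-Hochberg adjustment ran over each contrast, with calls under 0.05. Shares of tos-1 were also compared by exact permutation within backgrounds (Python 3.11.15). The fit was also run on simulated data with known differences, and how many were recovered is not given here. The 20570 gene labels included 1598 sequence names that were turned into symbols.

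tos-1, the gene lists and the tests were chosen with earlier results of these data known. Named genes were those most correlated with tos-1 (listed in at least 15 libraries), 2 factor lists and the neighbouring genes. Splicing event types marked as approximate in the lists were left out of the fit. The levels of markers and lists are given over loci naming 1 gene. Alternatives were another pseudocount (0.1), no filter, library scaling, fits of fewer libraries, a replicate block, a share scale, a robust prior and leaving out libraries.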

Additional observations from a re-analysis of the deposited data

Results flagged for a closer look

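A transcript start was listed at 44.6 FPKM in the locus that joins K07B1.7 and tos-1 in uaf-1(n4588); rbm-5(n5132) replicate 2. The exon of this start, V:9346647–9347756, overlaps K07B1.7, annotated at V:9345022–9346962, but begins upstream of it. The library was outside the comparisons of tos-1. The start stood out because its transcripts run from upstream of the neighbouring gene through the unbroken tos-1 first exon. The other 17 libraries listed tos-1 as a locus of its own.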

How the results depend on the processing

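Of 503 recalculations of 26 results, 475 kept their direction and their side of the threshold. For the exon with uaf-1(n4588) averaged over backgrounds (log2 difference -4.36, limma adjusted p = 0.0625), the threshold was passed on the share scale (-0.333), with the joined locus (-4.32), and without wild-type replicate 1 or rbm-5(n5132) replicate 3. In replicates 2 and 3 the threshold was passed by uaf-1(n4588) against wild type (-8.25), the n5119 double mutant against rbm-5(n5119) (-4.11) and rbm-5(n5132) against wild type (-7.13), while the unbroken share (0.514) and the upstream last exon share (-0.578) with uaf-1(n4588) no longer passed. The start-to-end ratio of uaf-1(n4588) against wild type, 2.42, passed in its own libraries. The direction turned on the share scale for rbm-5(n5119) against wild type (0.0138) and for the rbm-5 mutations averaged over alleles and backgrounds (0.0138), for the n5119 double mutant against uaf-1(n4588) without the 2 libraries with most entries at 0 (0.23), and for the included share with rbm-5 mutations in replicates 2 and 3 (-0.0609). The cause of these changes was not tested.

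Without 1 library at a time, the exon difference ranged from -5.08 to -3.60 with uaf-1(n4588) averaged, from -8.63 to -5.26 against wild type and from -0.72 to 0.23 for the n5119 double mutant against uaf-1(n4588). The included share with rbm-5 mutations ranged from -0.0317 to 0.0395, the unbroken share from -0.0112 to 0.0888 (0.110 without the 2 libraries with most entries at 0), and the start-to-end ratio with rbm-5 mutations from -0.74 to 0.27. The exact permutation p of the included, unbroken and upstream last exon shares with uaf-1(n4588) stayed at or below 0.00438, 0.00813 and 0.012. Replicate numbers were not shown to pair the libraries: deviations of same-numbered libraries correlated from -0.112 to 0.171 over splicing events and from -0.351 to 0.419 over end levels, not every pair above 0.1. As a hint from the data, 11 and 13 of 18 libraries correlated best with their own number. With the replicate block the exon difference was -4.30 (limma adjusted p = 0.114), and no call changed. Replicates 2 and 3 alone could not be fitted with limma where the n5132 double mutant enters, since 1 library remained under a minimum of 2; the permutations of replicates 2 and 3 rest on that 1 library. With 3 libraries a strain and unknown depth, small differences in shares were not detectable, and each share rests on 1 to 3 assembled transcripts.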
